A study of Bos taurus with 16 samples.

Results

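The expression of 10 genes of fibroblast growth factor (FGF) signalling was followed in pools of bovine blastocysts, namely the ligands FGF2, FGF4 and FGF10, the receptors FGFR1, FGFR2, FGFR3 and FGFR4, and the feedback targets SPRY2, SPRY4 and DUSP6. They were chosen by symbol as core components of the pathway, and they are 10 of the 22358 loci of the count tables. The embryos were flushed from superovulated and artificially inseminated lactating Holstein cows, whereas the GEO label calls the tissue IVF embryos. All cows ate the same basal diet, with rumen-protected methionine for the Methionine cows and without it for the Control cows, and their age is not given in the sources used here. Each of 8 cows, 4 per treatment, gave 2 pools of her own expanded blastocysts, so that pool C4.2 is the second pool of Control cow 4 and pool M5.1 is the first of Methionine cow 5. The Methionine pools held more blastocysts on average, so that treatment and number of embryos cannot be told apart fully. In the study's list, the quality number of the amplified RNA was lower in most Methionine pools than in any measured Control pool. It is not given for C2.2 and C4.2. Treatment and RNA quality thus cannot be told apart fully either. RNA of each pool was amplified linearly before the libraries were made.

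FGF ligands bind receptor tyrosine kinases on the cell surface with heparan sulphate as a cofactor, and the receptors act through adaptor proteins, RAS and the mitogen-activated protein kinases (MAPK). Sprouty proteins and the phosphatase DUSP6 are induced by the pathway and dampen it, so their transcripts are commonly read as a record of its activity. In the mouse blastocyst, FGF4 from the inner cell mass directs cells of that mass to the hypoblast, and in ruminants FGF2 is known to stimulate the trophectoderm to make interferon tau.

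The total count per pool was between 5624126 and 7826542 in 15 pools, and 1745048 in C3.2. Like the study's methods, the comparison left out C3.2 for its low share of exonic reads. This left 7 Control and 8 Methionine pools. A floor of 3 counts was equal to 0.383 to 0.533 CPM (counts scaled to a common total per pool) in the 15 pools. Markers of the blastocyst's own lineages were present in each of the 15 pools. Trophectoderm markers summed to between 3070 and 9680 CPM, led by KRT18, GATA2 and KRT8, with 7 to 9 of 10 at 3 or more counts. Inner cell mass markers, led by KLF4, POU5F1 and SOX2, summed to 105 to 469 CPM in 14 pools and 1740 CPM in C4.2. KLF4 alone was at 1620 CPM in C4.2, while POU5F1 was at 73.2 CPM there. SOX2 was at most 36.1 CPM in any Control pool compared. Hypoblast markers summed to 391 to 1100 CPM, led by LAMB1, GATA6 and PDGFRA, with SOX17 and RUNX1 at 0. Leukocyte markers reached 2580 CPM in C2.1 and at most 30.6 CPM in the other 14 pools. In C3.2, trophectoderm markers summed to 7230 CPM, inner cell mass markers to 57.9 CPM, hypoblast markers to 1990 CPM and leukocyte markers to 166 CPM. Only 3 of 11 leukocyte markers reached 3 counts there, mainly PTPRC with 278 counts, against 10 of 11 in C2.1. In such pools, fewer cells of a type and less RNA per cell cannot be told apart.

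Of the 10 genes, 8 passed the filter on low counts (CPM summed over the 15 pools of at least 15), while FGF4 and FGFR3 did not. FGF2 was the 1 gene called different by the edgeR exact test, which the study's methods use, at a false discovery rate (FDR) under 0.10 and a fold of 2 or more. It was lower in the Methionine pools. The same rule called 1.05% of the 10519 loci tested, and 0.77% were called as higher in Control. The edgeR quasi-likelihood test called 0 loci, with a smallest FDR of 0.302, although 909 loci had an unadjusted p under 0.05. Fold changes are log2 of Methionine over Control. Their median over the 8 genes was −0.41, against −0.048 over all loci tested, with 3 genes higher in Methionine and 5 higher in Control.

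**Figure D1:**
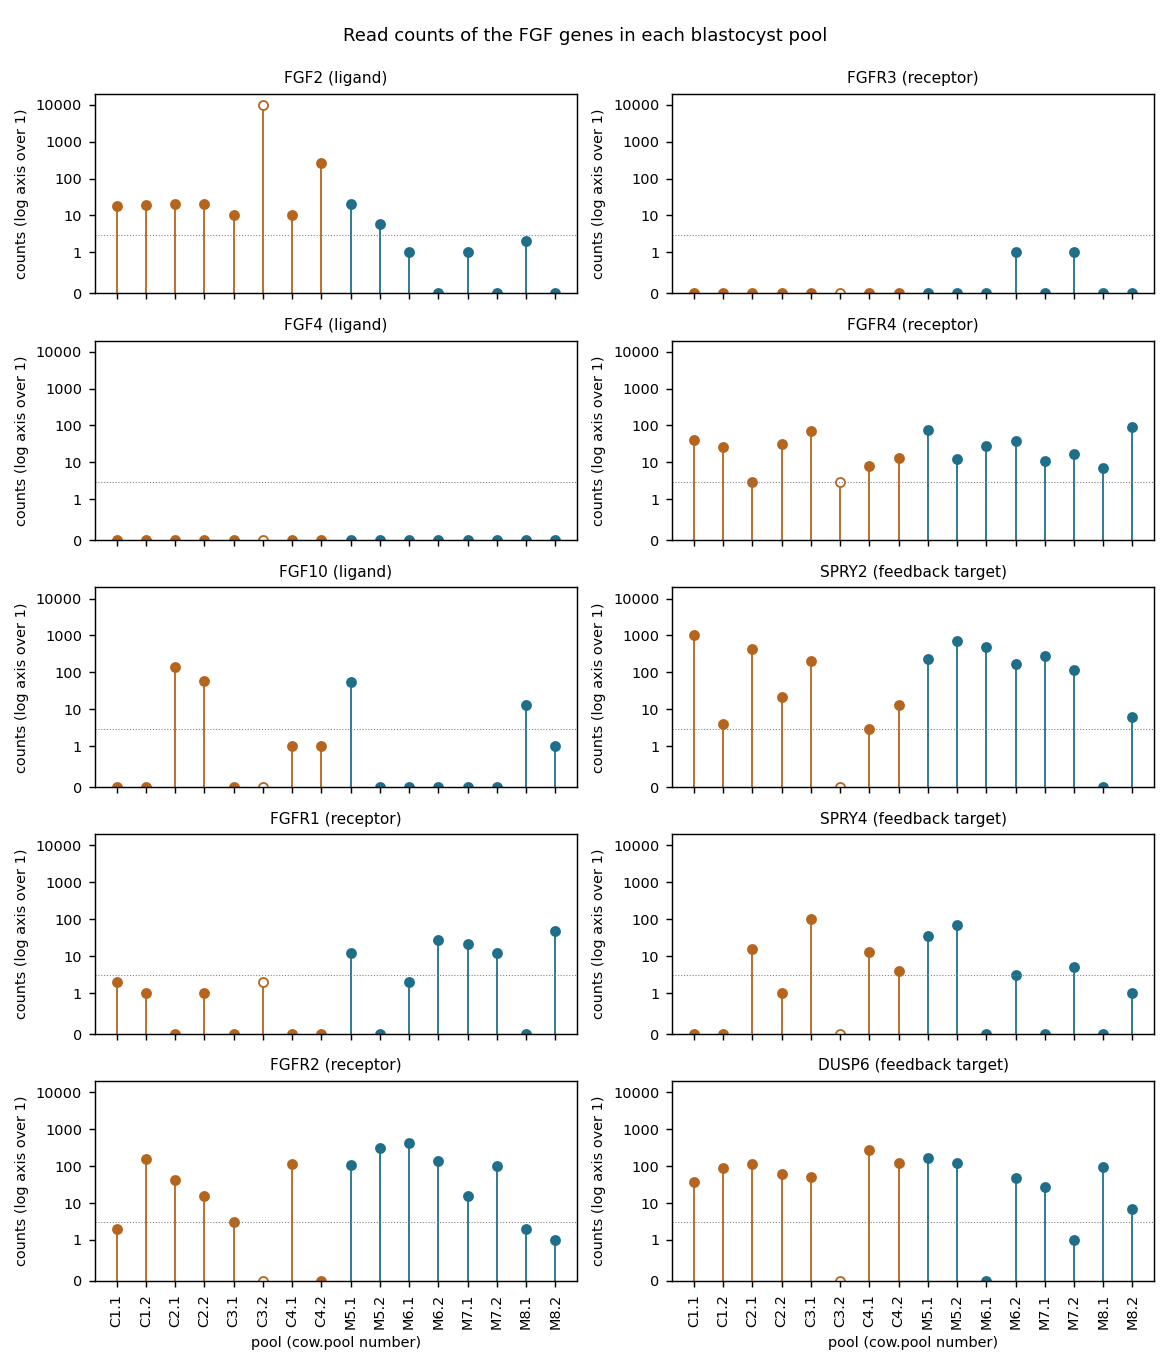
Read counts (vertical axis, logarithmic above 1) of the 10 genes in the 16 pools (horizontal axis, C for Control in brown and M for Methionine in blue, cow and pool number). The open circle is pool C3.2, which was left out of the comparison, and the dotted line marks 3 counts. FGF4 was at 0 in all pools, FGF2 stood at 9659 counts in C3.2, and FGFR1 reached 3 counts in 5 Methionine pools and in 0 Control pools.

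The pools differed in which of the 10 genes they held. At 3 or more counts, M5.1 held 8 of the 10 and C2.1 held 7, while M6.1 and M8.1 held 3 each. In C3.2, FGF2 and FGFR4 alone reached 3 counts, and SPRY2, DUSP6, FGFR2, SPRY4 and FGF10 were at 0. FGFR4 was the only one of the genes at 3 or more counts in all 16 pools. The genes were also unevenly spread over the 15 pools. The pool with the most held a median of 33.7% of a gene's summed counts over the 8 tested genes, against 19.5% over all tested loci.

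The ligand FGF2 (locus XLOC_006081), a growth factor known from uterine fluid and from the early embryo, reached 3 counts in every Control pool and in 2 of 8 Methionine pools. It had 18 and 19 counts in C1.1 and C1.2, 21 and 20 in C2.1 and C2.2, and 10 in C3.1. Cow 4 gave 10 counts in C4.1 and 270 in C4.2. The Methionine pools held 20 and 6 counts in M5.1 and M5.2, 1 and 0 in M6.1 and M6.2, 1 and 0 in M7.1 and M7.2, and 2 and 0 in M8.1 and M8.2. Thus C4.2 stood far above the other Control pools, and M5.1 lay within their range. Of the other Methionine pools, 3 had 1 or 2 counts and 3 had 0.

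FGF2 averaged 7.11 ± 12.2 CPM in Control (SD, n = 7 pools) and 0.511 ± 0.944 CPM in Methionine (SD, n = 8 pools). The log2 fold change was −3.90 with an FDR of 0.0962 by the edgeR exact test, which takes the pools of a cow as independent, and the FDR was 0.312 by the quasi-likelihood test. The call was lost when the pools of a cow were summed (FDR 0.301, edgeR exact test) and with the cow as a random effect (FDR 0.843, limma voom). DESeq2, whose default settings replace single outlying counts, gave −2.43 ± 1.03 (SE) and an FDR of 0.449. Without C4.2 the exact test gave −2.48 and an FDR of 0.468. In terms of cows, the means were 2.61, 3.41, 1.35 and 18.2 CPM for Control cows 1 to 4, and 1.77, 0.0681, 0.0639 and 0.139 CPM for Methionine cows 5 to 8. Cow 5 lay above cow 3, and the exact two-sided permutation test over the 70 assignments of cows gave p = 0.0571, where 0.0286 is the smallest it can give.

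The pool left out of the comparison held most of the FGF2 of the series. C3.2 had 9659 counts of FGF2, which is 0.554% of its counts (95% Wilson interval 0.543 to 0.565, for counting error only). In percent of that count, 6 Control pools other than C4.2 held between 0.104 and 0.217, and C4.2 held 2.80. The Methionine pools held between 0 and 0.207, with a median of 0.0104. To see whether other genes have this pattern, 30 other loci were taken that had at least 1000 counts in C3.2 and at least 10 times the count of any other pool. Their median share of the C3.2 count was between 0.122% and 0.248% in the 7 Control pools, where 25 to 29 of them had counts. In the Methionine pools it was between 0% and 0.0722%, with the highest in M5.1, and 6 to 18 of them had counts. The same difference between treatments was present for 18 loci led by C2.1, whose median share was 0.0839% to 0.12% in Control and 0% to 0.0342% in Methionine. When every count under 1% of a locus's highest count was set to 0, FGF2 kept counts in 1 of the 15 pools, C4.2. This outcome follows from the shares above and from the cutoff, which was chosen after seeing the data. It is therefore no test of where the small counts came from. The log2 fold change was then −8.01, with an FDR of 0.36 by the edgeR exact test. The leukocyte markers of C3.2 summed to 166 CPM, but only 3 of the 11 reached 3 counts. These were PTPRC with 278 counts, LAPTM5 with 7 and TYROBP with 3. How the small FGF2 counts of the other Control pools arose was not tested.

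**Figure D2:**
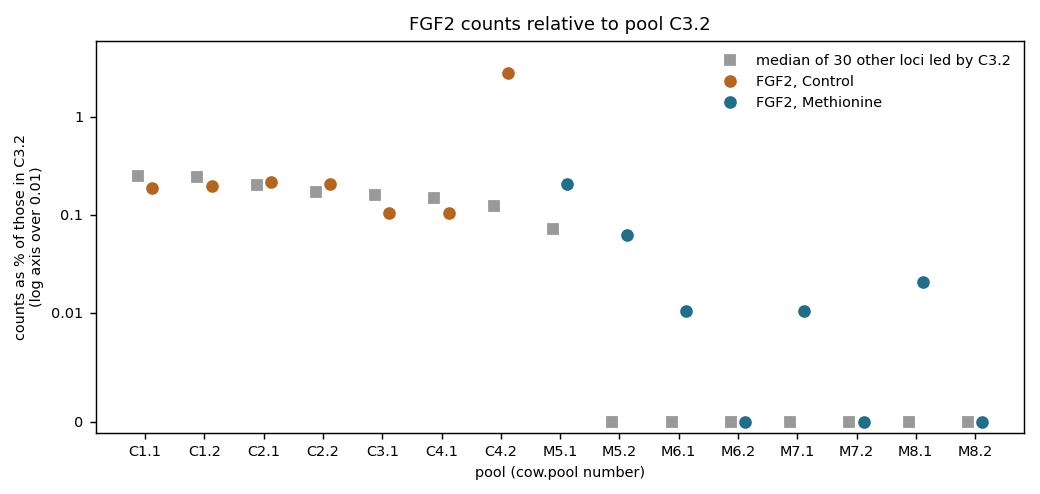
Counts of FGF2 (circles, brown for Control and blue for Methionine) and the median over 30 other loci that C3.2 led (grey squares), each in percent of the count in C3.2 (vertical axis, logarithmic above 0.01), in the 15 other pools (horizontal axis). In 6 Control pools FGF2 lay between 0.104% and 0.217%, near the grey squares at 0.122% to 0.248%, while C4.2 lay at 2.80%.

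FGF2 also shares its position with NUDT6, an antisense gene that overlaps it in RefSeq (assembly ARS-UCD2.0). The NUDT6 locus of the count tables (XLOC_006377) had 0 counts in all pools. Whether the counting used the strand is not given in the sources used here, so that reads of these overlapping genes cannot be told apart.

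FGF4 (XLOC_014743), the ligand that the inner cell mass of the mouse secretes, had 0 counts in all 16 pools. A count of 0 allows a level of up to 0.383 to 0.533 CPM in the 15 pools and 1.72 CPM in C3.2. The medians of POU5F1 and SOX2, which are known to drive Fgf4 together in the mouse, were 23.7 and 15.5 CPM. The part of inner cell mass cells in the pools was not tested. In RefSeq, FGF4 lies directly between FGF19 and FGF3, and these loci were at 0 in all pools as well. Whether the transcript models of the authors cover these genes fully was not tested.

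FGF10 (XLOC_010062), a ligand of the FGFR2 isoform of epithelia, was detected in 4 of 15 pools. It had 142 and 60 counts in C2.1 and C2.2, 55 in M5.1 and 13 in M8.1, and 0 or 1 in the other 11 pools. Both pools of cow 2 were thus high, and the treatments overlapped. The levels were 4.98 ± 9.58 CPM in Control (SD, n = 7 pools) and 1.19 ± 2.66 CPM in Methionine (SD, n = 8 pools). This gave a log2 fold change of −2.35 with an FDR of 0.902 by the edgeR exact test, and the cow means gave p = 0.886 by the exact permutation test. Without cow 2 the log2 fold change was 3.72, the opposite direction. C2.1, its highest pool, was the pool with 2580 CPM of leukocyte markers, whereas C2.2 had at most 30.6 CPM, and the part of other cell types in these values was not tested.

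FGFR1 (XLOC_013834), the receptor that all cells of the inner cell mass carry in the mouse, was the 1 gene of the 8 whose cow means did not overlap between treatments. Control pools had 2 and 1 counts in C1.1 and C1.2, 1 in C2.2, and 0 in C2.1, C3.1, C4.1 and C4.2. Methionine pools had 12 and 0 counts in M5.1 and M5.2, 2 and 27 in M6.1 and M6.2, 21 and 12 in M7.1 and M7.2, and 0 and 48 in M8.1 and M8.2. Hence no Control pool and 5 of 8 Methionine pools reached 3 counts, at least 1 from each of the 4 Methionine cows. In all, 4 counts were found in Control and 122 in Methionine, and C3.2 had 2.

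The cow means of FGFR1 were 0 to 0.207 CPM in Control and 0.827, 2.41, 2.25 and 3.24 CPM in cows 5 to 8. They averaged 0.0711 ± 0.0976 CPM in Control and 2.18 ± 1.0 CPM in Methionine (SD, n = 4 cows each), higher in 4 of 4 Methionine cows than in any Control cow. The exact permutation test gave p = 0.0286, the smallest it can give. Among all loci tested, the cow means did not overlap and were higher in Methionine in 1.16% and higher in Control in 1.05%. Adjusted over all loci tested, the smallest p of this test was 1.0. The edgeR exact test gave a log2 fold change of 4.50 (p = 0.00445, FDR 0.201), and the quasi-likelihood FDR was 0.323. DESeq2 gave 4.76 ± 1.52 (SE) and an FDR of 0.17. FGFR1 was therefore not called. Its Control values lay under the floor of 3 counts, so that the size of the fold change depends on the prior count.

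FGFR2 (XLOC_013550), whose splice forms bind FGF2, FGF4 or FGF10 and which is a receptor of the trophectoderm, varied from 0 to 422 counts. The Control pools had 2 and 153 counts in C1.1 and C1.2, 41 and 16 in C2.1 and C2.2, 3 in C3.1, and 118 and 0 in C4.1 and C4.2. The Methionine pools had 111 and 317 counts in M5.1 and M5.2, 422 and 141 in M6.1 and M6.2, 16 and 99 in M7.1 and M7.2, and 2 and 1 in M8.1 and M8.2. M6.1 and M5.2 were highest, C1.2 and C4.1 lay among M6.2, M5.1 and M7.2, and the lowest pools came from both treatments. C4.2, without FGFR2, had the largest sum of trophectoderm markers of all 15 pools, 9680 CPM.

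Mean FGFR2 levels were 7.55 ± 9.71 CPM in Control (SD, n = 7 pools) and 19.5 ± 20.9 CPM in Methionine (SD, n = 8 pools). Methionine over Control was 1.23 on the log2 scale (DESeq2 1.21 ± 1.1 SE) with an FDR of 0.937 by the edgeR exact test. By cow, 6.65 ± 5.04 CPM in Control and 19.5 ± 18.4 CPM in Methionine (SD, n = 4 cows each) gave p = 0.343 in the exact permutation test. The difference of 12.8 CPM was smaller than the SD of the Methionine cows but larger than that of the Control cows. RefSeq lists 15 transcripts of FGFR2, and as the counts are summed per gene, the epithelial and mesenchymal forms that decide which ligand binds were not resolved.

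FGFR3 (XLOC_018315), another receptor of the same family, had 1 count in M6.2 and 1 in M7.2, and 0 in the other 14 pools, below the floor throughout. FGFR4 (XLOC_018966), a receptor of the hypoblast lineage in the mouse, was the most evenly spread of the 8 tested genes. Its top pool, M8.2, held 19.5% of its counts. FGFR4 had 41, 26, 3, 32, 70, 8 and 13 counts in the Control pools in their order, and 77, 12, 27, 37, 11, 17, 7 and 92 in the Methionine pools. The ranges overlapped almost wholly. Its levels were 3.89 ± 3.08 CPM (SD, n = 7 pools) and 4.94 ± 4.42 CPM (SD, n = 8 pools). A log2 fold change of 0.28 was found (DESeq2 0.30 ± 0.7 SE), with an FDR of 1.0 by the edgeR exact test, and the cow means gave p = 0.857 by the exact permutation test.

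**Figure D3:**
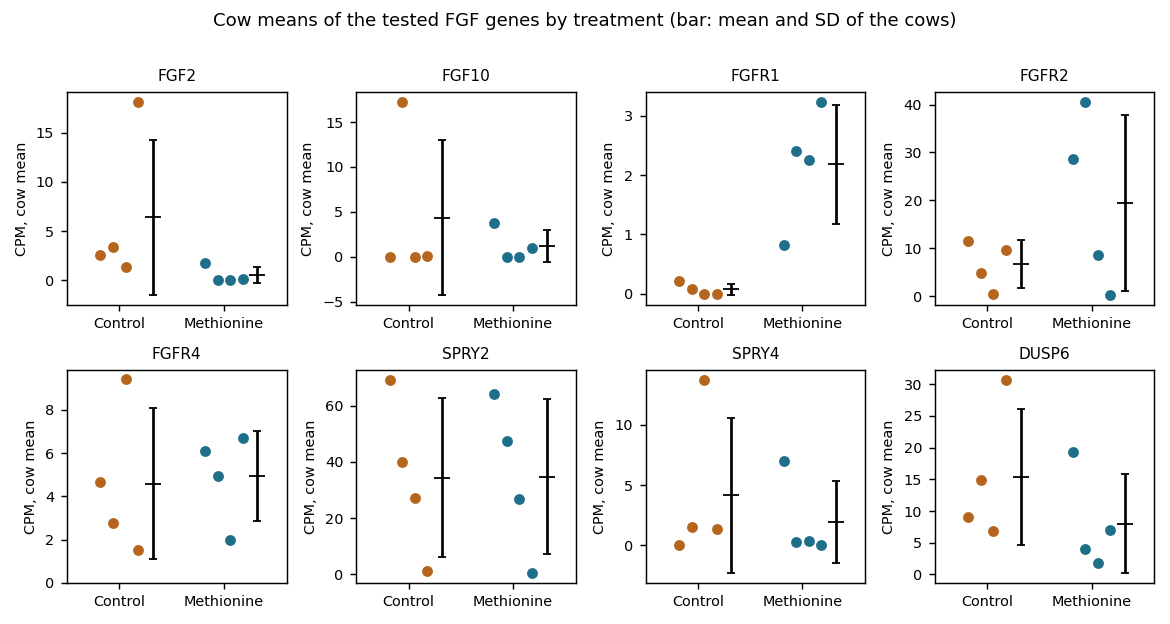
Mean CPM of each cow (points; vertical axis, linear and scaled per gene) for the 8 tested genes, with the mean and SD of the 4 cows of each treatment beside them (black bars). Only for FGFR1 did the points of the treatments not overlap, at 0 to 0.207 CPM in Control and 0.827 to 3.24 CPM in Methionine.

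The feedback target SPRY2 (XLOC_003119), which restrains signalling from receptor to RAS, had nearly the same mean in both treatments and very different values within them. The counts were 1046 and 4 in C1.1 and C1.2, 432 and 22 in C2.1 and C2.2, 201 in C3.1, and 3 and 13 in C4.1 and C4.2. In the Methionine pools they were 234 and 729 in M5.1 and M5.2, 493 and 166 in M6.1 and M6.2, 286 and 114 in M7.1 and M7.2, and 0 and 6 in M8.1 and M8.2. The pools of cows 4 and 8 were low in both cases, and C1.1 was the highest Control pool while C1.2 was among the lowest. Means were 35.4 ± 53.1 CPM in Control (SD, n = 7 pools) and 34.8 ± 32.8 CPM in Methionine (SD, n = 8 pools). The log2 fold change was −0.11 (DESeq2 −0.13 ± 1.08 SE) with an FDR of 1.0 by the edgeR exact test, and its sign changed with the cow or pool left out. The exact permutation test over cows gave p = 1.0.

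SPRY4 (XLOC_019758), a close relative of SPRY2, reached 3 counts in 4 of 7 Control and 4 of 8 Methionine pools. Among Control pools, C3.1 had 102 counts, C2.1 had 16, C4.1 had 13, C4.2 had 4, and the others had 0 or 1. Methionine counts were 36 and 69 in M5.1 and M5.2, 3 in M6.2, 5 in M7.2, and 0 or 1 in the rest. A single pool, C3.1, held 40.8% of its counts. Levels of 2.77 ± 4.97 CPM (SD, n = 7 pools) and 1.93 ± 3.35 CPM (SD, n = 8 pools) gave a log2 fold change of −0.71 (DESeq2 −0.73 ± 1.59 SE) and an FDR of 1.0 by the edgeR exact test. Without cow 3 it was 0.82. The cow means gave p = 0.543 by the exact permutation test.

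DUSP6 (XLOC_017474), a cytoplasmic phosphatase that dampens MAPK signalling, was present in all 7 Control pools compared, and was at 0 in C3.2. It had 37 and 89 counts in C1.1 and C1.2, 114 and 61 in C2.1 and C2.2, 51 in C3.1, and 277 and 123 in C4.1 and C4.2. In the Methionine pools it had 162 and 123 counts in M5.1 and M5.2, 0 and 47 in M6.1 and M6.2, 27 and 1 in M7.1 and M7.2, and 95 and 7 in M8.1 and M8.2. The counts of 4 of these pools, M6.1, M7.1, M7.2 and M8.2, lay below all 7 Control pools compared, but the pools of cow 5 lay near the top. DUSP6 averaged 16.6 ± 13.9 CPM in Control (SD, n = 7 pools) and 8.03 ± 8.42 CPM in Methionine (SD, n = 8 pools). The log2 fold change was −1.18 (DESeq2 −1.19 ± 0.86 SE) with an FDR of 0.848 by the edgeR exact test, and the exact permutation test over cows gave p = 0.314.

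The 3 feedback targets did not rank the cows alike. Over the 8 cows, on cow means of log2(CPM + 0.5), SPRY2 and SPRY4 had r = 0.39 (exact permutation p = 0.34) and rho = 0.48 (p = 0.243). SPRY2 and DUSP6 had r = −0.22 (exact permutation p = 0.617) and rho = −0.12 (p = 0.793), and SPRY4 and DUSP6 had r = 0.44 (exact permutation p = 0.276) and rho = 0.43 (p = 0.299). Adjusted over these 3 relations, the exact permutation p of r were 0.51, 0.617 and 0.51, and those of rho 0.449, 0.793 and 0.449, in the same order. Without the 2 cows farthest from the median of the first gene, r was 0.45, −0.09 and 0.62. A treatment has 4 cows, too few for a value within it. FGF4, at 0, could not be related to its targets.

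By the median, the pools of 1 cow resembled each other more in these genes than pools of different cows of a treatment. For the 8 genes, the median absolute difference of log2(CPM + 0.5) was 0.851 over the 7 same-cow pairs and 1.41 over the 42 pairs from other cows. For all tested loci these were 0.905 and 0.969. The contrast was large for SPRY2, with 1.39 within and 3.24 between cows, and for FGFR2, with 1.42 and 2.86, whereas DUSP6 had 1.5 and 1.51. Some Control cows departed far from these medians. SPRY2 was at 138 CPM in C1.1 and 0.600 CPM in C1.2, and FGFR2 at 19.5 CPM in C4.1 and 0 CPM in C4.2. For each of these genes, the pools of the other cows were closer. These differences are descriptions, as the pairs share pools. The edgeR fits take the pools of a cow as independent.

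Of 71 other genes of the pathway, set out in 4 lists, 66 were in the count tables at 67 loci, and 39 were tested. The exact test of edgeR called 1 of these 39 (higher in Control), against 1.05% of all loci, and 23 were higher and 16 lower in Methionine, with a median log2 fold change of 0.06. The called gene was FLRT3, a membrane protein that binds FGF receptors, and 1 pool carried it. C2.1 had 1128 of its 1253 counts, and the other 14 pools had 0 to 34. Its log2 fold change was −4.59 (edgeR exact test FDR 0.0588, quasi-likelihood FDR 0.323), the cow means gave p = 0.6 by the exact permutation test, and it was not called without C2.1, the pool high in leukocyte markers.

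Most of the other ligands were not detected. Of their 19 loci, 11 stayed under 3 counts in all 15 pools, 9 of them at 0, and 3 were tested, of which 0 were called. FGF9, a ligand with a role in gonad and lung, had 123 of its 129 counts in M8.2. FGF18, known for skeletal growth, had 88 counts in C2.2, 71 in C3.1, 226 in M5.1, 56 in M7.2 and 360 in M8.1, and at most 11 elsewhere (log2 fold change 1.79, edgeR exact test FDR 0.94). FGF13, an intracellular member that binds sodium channels, reached 64 counts in M5.1 and 55 in M8.1 (1.97, edgeR exact test FDR 0.743). FGF1, the other broadly binding ligand beside FGF2, is listed at 2 loci, both below the filter. XLOC_019759 shared with FGF2 its high count in C3.2, with 1829 counts, but had 0 counts in C4.2 and in M5.1, where FGF2 was raised. It had 24 counts in C1.2, 26 in C2.1 and 0 to 5 in the remaining Control pools, and 0 to 2 in the Methionine pools. Its cow means, most of them at or under the floor, were higher in the 4 Control cows without overlap (exact permutation p = 0.0286). The same was found in 1.05% of the loci tested, which do not include this locus. The share among loci below the filter was not computed. The other locus, XLOC_019812, had 8 counts in M6.1, 4 in C4.2 and 0 to 2 elsewhere, and its cow means gave p = 0.543 by the exact permutation test. The part of C3.2 in these small counts was not tested.

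Co-receptors and other binding proteins held the heparan sulphate carrier SDC4, with 128 to 375 CPM in Control and 137 to 293 CPM in Methionine (log2 fold change −0.19, DESeq2 −0.18 ± 0.28 SE). FGFRL1, a receptor without a kinase domain, had medians of 14.0 and 12.4 CPM, and SDC1 had 1.72 and 2.10 CPM. None of these was called, with FDR of 0.975 to 1.0 by the edgeR exact test.

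Of the adaptors and the RAS-MAPK cascade, 14 of 17 loci were tested and 0 were called. NRAS had medians of 164 CPM in Control and 186 CPM in Methionine, with a log2 fold change of 0.01 (DESeq2 0.01 ± 0.2 SE), and GRB2, the adaptor that brings SOS to the receptor complex, had 141 and 153 CPM. PTPN11 encodes SHP2, the phosphatase needed for full RAS activation by FGF receptors. Its cow means were 77.9, 58.6, 73.4 and 52.1 CPM in Control and 164, 135, 115 and 97 CPM in Methionine, without overlap (exact permutation p = 0.0286). The log2 fold change was 0.96 (DESeq2 0.96 ± 0.38 SE), with an edgeR exact test FDR of 0.356 and a quasi-likelihood FDR of 0.388, and PTPN11 was not called. It was 1 of the 39 tested pathway genes with such cow means higher in Methionine, where the share over all loci was 1.16%.

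Of the other feedback inhibitors and targets, 12 of 17 loci were tested and 0 were called. FOS, an early response gene, had medians of 53.6 and 48.0 CPM, DUSP5, a nuclear phosphatase of the same family, 46.3 and 30.3 CPM, and SPRED2, an inhibitor of RAS signalling, 17.2 and 30.6 CPM. FOS was highest in C4.1 at 314 CPM, the pool in which DUSP6 was highest too. ETV1, a transcription factor downstream of FGF signalling, had 92 and 46 counts in the pools of cow 1 and at most 8 elsewhere, with a log2 fold change of −4.14 (edgeR exact test p = 0.0255, FDR 0.421). CBL, a ubiquitin ligase of activated receptors, was below the filter and is named after its values were seen. It had 15 counts in M6.2, 5 in M7.1, 5 in M8.1 and 0 to 2 elsewhere. Its cow means were 0 to 0.075 CPM in Control and 0.132 to 1.26 CPM in Methionine (exact permutation p = 0.0286), most of them under the floor. Cow means higher in Methionine without overlap were found in 1.16% of the loci tested, which do not include CBL. The share among loci below the filter was not computed.

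**Figure D4:**
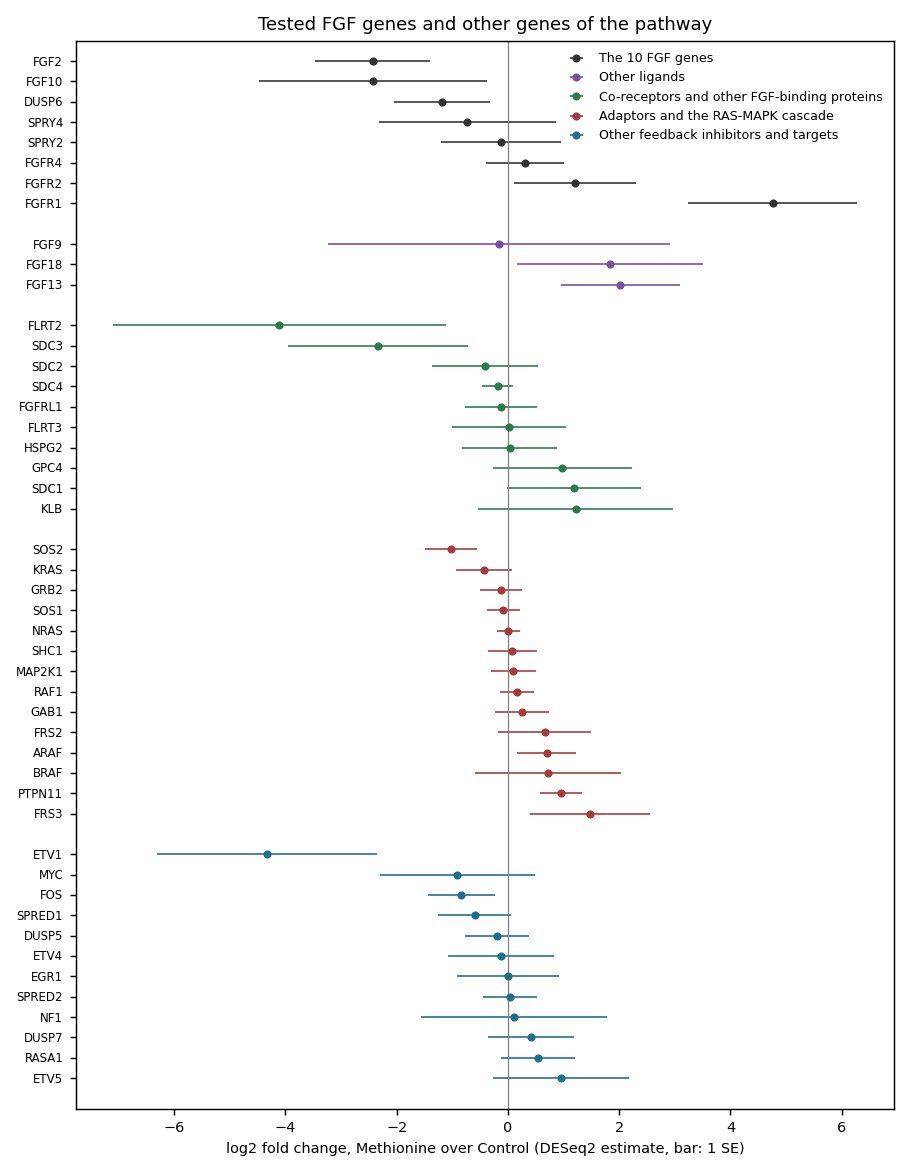
Log2 fold changes (horizontal axis, Methionine over Control) of the 8 tested FGF genes and the 39 other tested genes of the pathway, as DESeq2 estimates with bars of 1 SE, grouped by list. DESeq2 replaces single outlying counts, so that FGF2 lies at −2.43 and FLRT3 at 0.02 here, where the edgeR exact test gave −3.90 and −4.59; FGFR1 lies farthest to the right at 4.76.

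The loci whose profile over the 15 pools was most like that of a gene were named for the 3 genes with at least 3 counts in 12 or more pools, out of 9243 named loci. For FGFR4 these were DHRS11 (r = 0.90), ARL10 (0.85) and MPDZ (0.84). They were APIP (r = 0.84), STX18 (0.83) and FNDC3A (0.80) for SPRY2, and KIAA1432 (r = 0.80), MDFIC (0.78) and WARS2 (0.78) for DUSP6. These are the highest of many correlations and are given as a description of these pools.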

How the data were processed

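The authors mapped the reads to bosTau7 with TopHat2 2.0.4, assembled transcripts with Cufflinks 2.0.2 and counted the reads of each gene with htseq-count (tool versions per the labels), and the deposited files hold these raw counts, 1 table per pool. The 182 loci listed under several names were entered once. Amplified RNA gives reads that are not independent molecules, so that intervals and floors cover counting error only.

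Loci whose CPM reached 15 when summed over the 15 pools were tested on the whole table with the exact test of edgeR 4.0.16 (TMM, common and tagwise dispersion, Benjamini-Hochberg adjustment, FDR under 0.1 and at least 2-fold), as in the study's methods. Quasi-likelihood, DESeq2 1.42.0 and limma 3.58.1 fits were alternatives, and the code was tested on simulated data. Cow means of CPM were compared by exact permutation. Correlations used log2(CPM + 0.5). The common coefficient of biological variation was 1.07.

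The members and lists were chosen with earlier results of these data known. Named were all 10 genes; of the pathway lists, genes called, the 4 with the smallest p and the 3 with the highest median CPM per list; 3 leading markers per cell type; and 3 loci most alike per well detected gene. A gene of the pathway lists is not reported here. Marker lists of cell types outside the embryo were summed in the 15 pools. The sums were at most 57 CPM for cumulus or granulosa cells, 45.5 CPM for erythrocytes and 4.71 CPM for uterine or oviduct epithelium. The first 2 of these highest sums came from CYP19A1 and ALAS2 alone. INHA, FOXL2 and HBA had 0 counts in the 15 pools, and HBB had 1 count in all. AMH, FSHR and HAS2 had at most 18 counts in a pool. RefSeq (ARS-UCD2.0) served for neighbouring genes alone, and all 10 genes matched it by symbol. The lane and sire of a pool are not given in the sources used here. No 2 pools agreed within sampling noise, with chi-square per degree of freedom of 51.0 or more.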

Additional observations from a re-analysis of the deposited data

Results flagged for a closer look

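Within groups of 7 or 8 pools, 6 of the 15 groups tested held a pool far from the others by Dixon's ratio. This rule flags about 1 in 20 groups of independent, normally distributed values. CPM with many zeros, and pools that share a cow, need not meet these conditions. The share over all loci is not given, so an excess in these genes cannot be read from it. The flagged pools were FGF2 in C4.2 (34.7 CPM) and in M5.1 (2.76 CPM), FGF10 in C2.1 (25.2 CPM) and in M5.1 (7.58 CPM), SPRY4 in C3.1 (13.7 CPM) and DUSP6 in C4.1 (45.7 CPM). The FGF2 level of M5.1 lay within the range of the Control pools. Outside the comparison, FGF2 had 9659 counts in C3.2, above the count in any other pool.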

How the results depend on the processing

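Against 110 loci called, the alternatives called 0 with the edgeR quasi-likelihood test (909 at an unadjusted p under 0.05), 0 with limma voom with a random cow effect (421), 67 with DESeq2, 55 without the filter, 6 with 1 CPM in 7 pools, 356 with all 16 pools, 66 without C2.1, 60 at an FDR under 0.05, 38 with counts under 1% of a locus's maximum set to 0, and 50 to 149 with a cow left out. Pool numbers only name pools (mean correlation of deviations −0.072 for equal and −0.063 for different numbers), and with them as a replicate block in the quasi-likelihood test 0 loci were called (713 at an unadjusted p under 0.05), as without the block. FLRT3, the 1 pathway gene called, became 0 genes under the quasi-likelihood test, DESeq2, voom, summed pools, no filter, 1 CPM in 7 pools, without C2.1, the block and the setting of small counts to 0, 0 to 1 with a cow left out, and 3 (BRAF, FGF1, FLRT3) with all 16 pools.

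FGF2 kept its direction under 20 alternatives and was called in 5 of them, 3 of 8 with a cow left out, with an FDR of 0.000168 (all 16 pools) to 0.843. The FDR was 0.843 by limma voom with a random cow effect, and with the pools of a cow summed it was 0.301. Without cow 4 its log2 fold change was −2.57 (FDR 0.511 by the edgeR exact test). Its difference of cow means was −698 CPM with all 16 pools. FGFR1 had no value with 1 CPM in 7 pools and was called in 0 of the 19 other alternatives, with an FDR of 0.17 to 0.993 and log2 fold changes of 2.79 to 5.66. Directions reversed for FGF10 (−3.78 to 3.72 with a cow left out), FGFR4 (−0.03 to 0.72), SPRY4 (−3.56 to 0.82) and SPRY2 (−0.58 to 0.55, 0.77 with voom, 0.05 with all 16 pools, 0.21 without C2.1 and 1.12 with the block). The difference of cow means reversed to −0.197 CPM for FGFR4 without C2.1 and to −1.58 CPM for SPRY2 with TMM scaling. The cause was not tested. Zeroing of small counts and leaving out C4.2 were chosen after seeing the data. Values under 3 counts per pool cannot be told from 0 at this depth.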
